A study of Mus musculus with 6 samples.

Results

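The aminoacyl-tRNA synthetase genes were read as the 36 rows of the deposited count table whose symbols are on a fixed list of these enzymes, out of 24421 genes in the table. The list holds 20 cytosolic enzymes and 16 mitochondrial enzymes, whose symbols end in 2. All 36 were found and all 36 passed the filter on low counts. The RNA came from isolated mouse pancreatic islets on a C57BL/6J background, with 3 libraries carrying the β cell knockout label for Dhps (genotype C57.DhpsloxP.MIP1-CreERT) and 3 the control label. The knockout label joins a floxed Dhps allele to MIP1-CreERT, a Cre recombinase fused to an estrogen receptor domain and driven by the mouse insulin promoter, so deletion is aimed at β cells and not at the other islet cells. Dhps encodes deoxyhypusine synthase, the first enzyme in making the hypusine residue of eIF5A, a translation factor. The labels give no age, no diet and no tamoxifen dose, do not spell out the prefix HF in the sample names, and do not say whether the controls carried the floxed allele or Cre. Whether replicates were separate animals is not stated either, and the p-values therefore cover the spread of these libraries alone, which may be technical.

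Aminoacyl-tRNA synthetases attach each amino acid to its matching transfer RNA, the step that sets the genetic code before the ribosome reads it. Cytosolic enzymes charge the tRNAs used for nuclear-encoded proteins, and a separate nuclear-encoded set is imported into mitochondria to charge the tRNAs of the mitochondrial genome. Several cytosolic enzymes sit together in a multi-synthetase complex held by scaffold proteins, and many cytosolic genes are known targets of ATF4, the transcription factor of the integrated stress response. Islet β cells make large amounts of proinsulin, which places a steady demand on charged tRNA.

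The C/EBP-ATF response element through which ATF4 acts was looked for in the promoters, because ATF4 is known to act on many of these genes. RefSeq promoter sequences (build GRCm38.p6, the build of the mm10 coordinates in the count table) were matched for 27 of the 36 genes. The letters TGATGNAA were searched on both strands in the 250 bases before the gene start, as the only motif searched. They occurred in 3 of 13 cytosolic promoters (23.1%), in 0 of 14 mitochondrial promoters, and in 3.91% of 27025 genes of the promoter table. The 3 promoters were those of Aars, Gars and Tars, the alanine, glycine and threonine enzymes, shown 5′ to 3′ on the coding strand with the match in capitals. They lie at chr8:111033592-111033841 (plus strand), chr6:55037751-55038000 (plus strand) and chr15:11399659-11399908 (minus strand).
Aars: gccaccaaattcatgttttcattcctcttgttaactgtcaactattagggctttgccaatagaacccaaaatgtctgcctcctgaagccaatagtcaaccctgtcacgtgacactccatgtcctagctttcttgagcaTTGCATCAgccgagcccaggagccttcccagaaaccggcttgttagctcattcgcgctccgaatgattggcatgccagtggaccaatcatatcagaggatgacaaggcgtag
Gars: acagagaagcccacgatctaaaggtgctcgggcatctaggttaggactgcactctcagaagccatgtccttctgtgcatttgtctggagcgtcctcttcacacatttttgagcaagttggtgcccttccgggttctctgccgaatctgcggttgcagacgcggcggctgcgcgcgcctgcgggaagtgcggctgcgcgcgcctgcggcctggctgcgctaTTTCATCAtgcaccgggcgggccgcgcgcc
Tars: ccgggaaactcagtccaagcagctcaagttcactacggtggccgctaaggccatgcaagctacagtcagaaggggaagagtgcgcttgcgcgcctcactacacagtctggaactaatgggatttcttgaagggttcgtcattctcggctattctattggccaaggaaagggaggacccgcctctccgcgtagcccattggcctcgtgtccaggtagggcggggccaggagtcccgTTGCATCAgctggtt
The match began 112 bases before the start in Aars, 30 bases before it in Gars and 15 bases before it in Tars, in each case on the reverse strand. A match is a description of letters and not a binding site.

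Dhps was read first, as the gene named in the knockout label. Its count sums all its exons over all islet cells, so it cannot show whether part of the gene was deleted in β cells. Dhps had 11.7, 12.7 and 11.4 CPM (counts scaled to library size by TMM factors) in the knockout-labelled libraries, against 12.0, 13.4 and 12.3 CPM in the controls. The log2 fold change was −0.07 ± 0.12 (SE; adjusted p = 0.742), so the Dhps counts did not separate the labels and directions below refer to libraries labelled knockout. Library totals lay between 21027737 and 23249895 counts, of which the 36 genes took 0.160% to 0.192%. Ins1, Ins2 and the other β cell markers of a list of 11 were detected in every library, and their summed level was 393790 to 448430 CPM in knockout-labelled islets, against 367390 to 496200 CPM in controls. This sum is carried by the insulin transcripts and overlaps between the labels. But 5 of the 11 β cell markers fell in the edgeR test (adjusted p under 0.05), 0 rose and 6 were not called. Of their log2 fold changes 9 were below 0, with a median of −0.65. Among all tested genes 2.63% fell and 4.14% rose.

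None of the 36 genes was called different in the knockout-labelled islets. At a Benjamini-Hochberg adjusted p of 0.05, the quasi-likelihood test of edgeR called 0 higher and 0 lower, where 6.76% of all 13736 tested genes were called, 4.14% higher and 2.63% lower. At an unadjusted p under 0.05 there were 5 members (13.9%), of which 3 were higher and 2 lower, against 26.5% of all genes (14.9% higher and 11.6% lower). limma-voom also called 0 members, where it called 891 of the 13736 genes. DESeq2 called Mars and Aars2, where it called 1702 of the 13736 genes. The groups did not overlap in CPM for 9 members (25.0%), 5 higher and 4 lower, where 32.1% of all tested genes did not overlap (16.9% higher and 15.2% lower). The log2 fold change was under 0.5 in size for 35 of the 36 members, against 78.6% of all tested genes, and it was negative for 14, where 49.1% of all tested genes were negative. The 95% interval of the fold change lay within 1.5-fold either way for 26 members (18 of 20 cytosolic and 8 of 16 mitochondrial), and within 2-fold for 35, Aars2 being the exception. For all tested genes these shares were 46.9% and 73.0%.

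**Figure D1:**
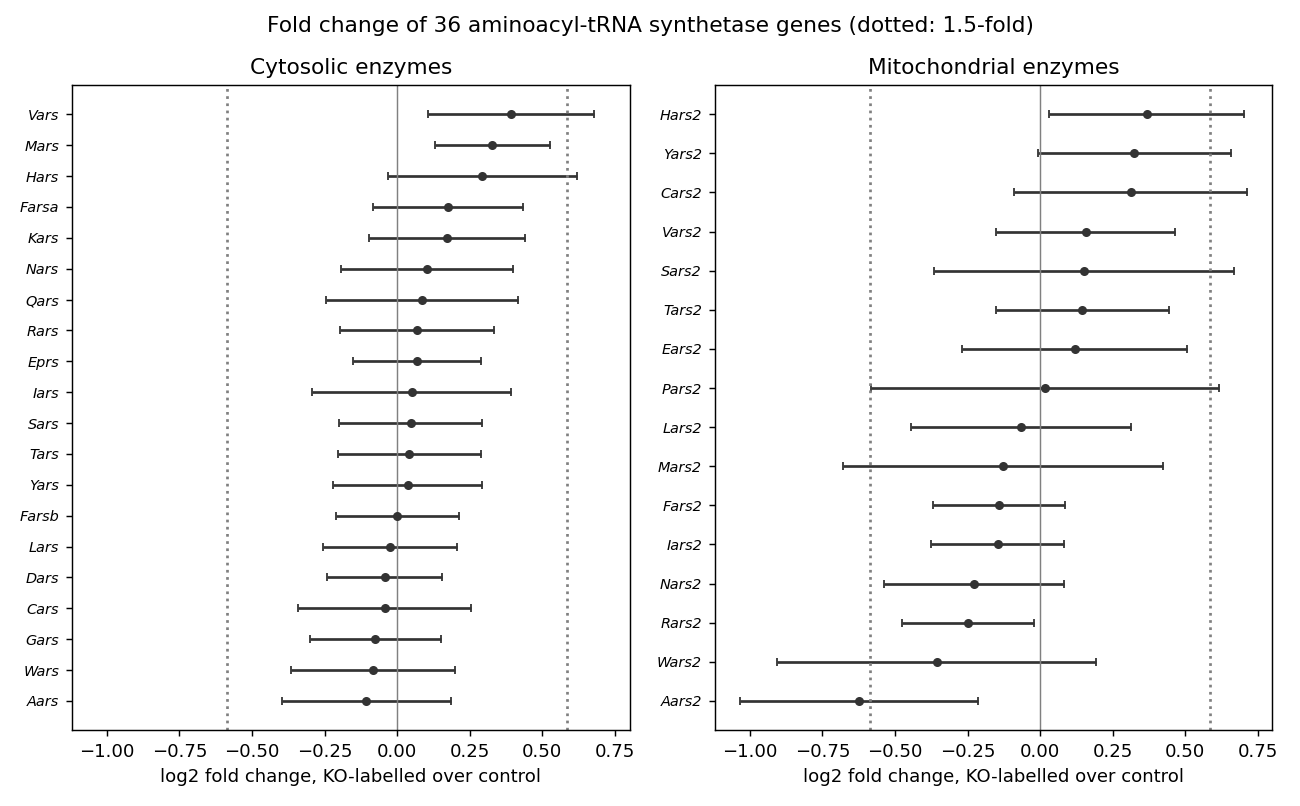
Log2 fold change of each synthetase gene, knockout-labelled over control, on the x axis with its 95% interval from edgeR (3 libraries per label); cytosolic enzymes are on the left and mitochondrial enzymes on the right. Points run between −0.11 and 0.39 for cytosolic genes and between −0.62 and 0.37 for mitochondrial genes, and dotted lines mark 1.5-fold.

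Of the 20 cytosolic enzymes 0 were called, with 14 log2 fold changes above 0 and 6 below. Their summed level was 1609, 1567 and 1535 CPM in the knockout-labelled libraries, against 1636, 1422 and 1543 CPM in the controls. Control 1 was the highest of the 6 and control 2 the lowest, and the groups overlapped. The median log2 fold change was 0.05, beside 0.01 over all tested genes. It became −0.04 without control 2, and was above 0 when any other library was left out, up to 0.12 without control 1. Its sign thus rested on control 2.

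Mars, the methionine enzyme, which also charges the initiator tRNA, had the smallest p of the 36. It had 69.5, 63.9 and 64.7 CPM in the knockout-labelled libraries, against 51.5, 51.6 and 54.7 CPM in the controls. Every knockout-labelled library was above every control. The log2 fold change was 0.33 ± 0.09 (SE, 95% interval 0.13 to 0.53), a 1.26-fold difference that missed the threshold with an adjusted p of 0.0538. It passed with upper-quartile factors (adjusted p = 0.0442), when genes needed 1 CPM or more in 3 or more libraries (0.0489) and in DESeq2 (0.0293). Over all 15 alternatives its adjusted p ran up to 0.418. That highest value came from the edgeR fit with acinar markers as a covariate, which called 0 of all 13736 tested genes. Mars lies on the minus strand of chromosome 10 from 127296221 to 127311786 (mm10), and 68 bp of its 2963 bp of exon are shared with the end of Ddit3. Ddit3 rose by 1.37 ± 0.20 on the log2 scale, so reads in that stretch cannot be assigned between the genes, and the part of the overlap in the Mars difference was not tested.

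Vars, the valine enzyme on chromosome 17 from 35000907 to 35016329, had the largest positive fold change. It had 59.1, 58.6 and 75.2 CPM in the knockout-labelled libraries, against 47.7, 44.1 and 55.1 CPM in the controls. The groups did not overlap, and knockout-labelled replicate 3 stood above the other 2. The log2 fold change was 0.39 ± 0.13, with an adjusted p of 0.0883 that stayed at or above 0.0516 in all 15 alternatives.

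Within the multi-synthetase complex, the 8 enzymes Dars, Eprs, Iars, Kars, Lars, Mars, Qars and Rars had a median log2 fold change of 0.07, with 0 called. Kars, the lysine enzyme that serves both cytosol and mitochondria, had 63.6, 57.4 and 72.2 CPM in the knockout-labelled libraries, against 59.6, 49.6 and 62.2 CPM in the controls (0.17 ± 0.12, adjusted p = 0.396). The groups overlapped for Kars. The bifunctional glutamate and proline enzyme Eprs (0.07), the isoleucine enzyme Iars (0.05), the glutamine enzyme Qars (0.09) and the arginine enzyme Rars (0.07) lay just above 0 in log2 fold change, and the aspartate enzyme Dars (−0.04) and the leucine enzyme Lars (−0.02) just below. The complex's scaffold genes were called for 0 of 3. Aimp2, the scaffold that docks several of these enzymes, averaged 18.5 ± 0.303 CPM in knockout-labelled islets and 14.8 ± 1.10 CPM in controls (SD, n = 3 each), a log2 fold change of 0.33 ± 0.11 (adjusted p = 0.0954). Eef1e1, the scaffold also known as AIMP3, was at 0.24 ± 0.17 and Aimp1 at −0.05 ± 0.14 in log2 fold change.

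The 12 cytosolic enzymes outside the complex had a median log2 fold change of 0.04, with 0 called. Hars, the histidine enzyme, had 27.9, 26.6 and 30.4 CPM in the knockout-labelled libraries, against 25.6, 17.8 and 25.9 CPM in the controls. The groups did not overlap, but the gap was narrow except for control 2 (0.29 ± 0.15, adjusted p = 0.233). Farsa, the catalytic subunit of the phenylalanine enzyme, had 18.2, 22.5 and 20.6 CPM in the knockout-labelled libraries, against 18.3, 17.1 and 18.8 CPM in the controls (0.18 ± 0.12, adjusted p = 0.364). Its partner subunit Farsb was at 0.00 ± 0.10 in log2 fold change, and 265 bp of its exons are shared with Sgpp2. The alanine enzyme Aars (−0.11), the tryptophan enzyme Wars (−0.08), the glycine enzyme Gars (−0.08), which also works in mitochondria, and the cysteine enzyme Cars (−0.04) had log2 fold changes below 0. The asparagine enzyme Nars (0.10), the serine enzyme Sars (0.05), the threonine enzyme Tars (0.04) and the tyrosine enzyme Yars (0.04, with 30 bp shared with C77080) lay above 0. The 3 genes whose promoter windows held the letters TGATGNAA, Aars, Gars and Tars, thus had log2 fold changes between −0.11 and 0.04. Only 13 of the 20 cytosolic genes had a promoter sequence to search.

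**Figure D2:**
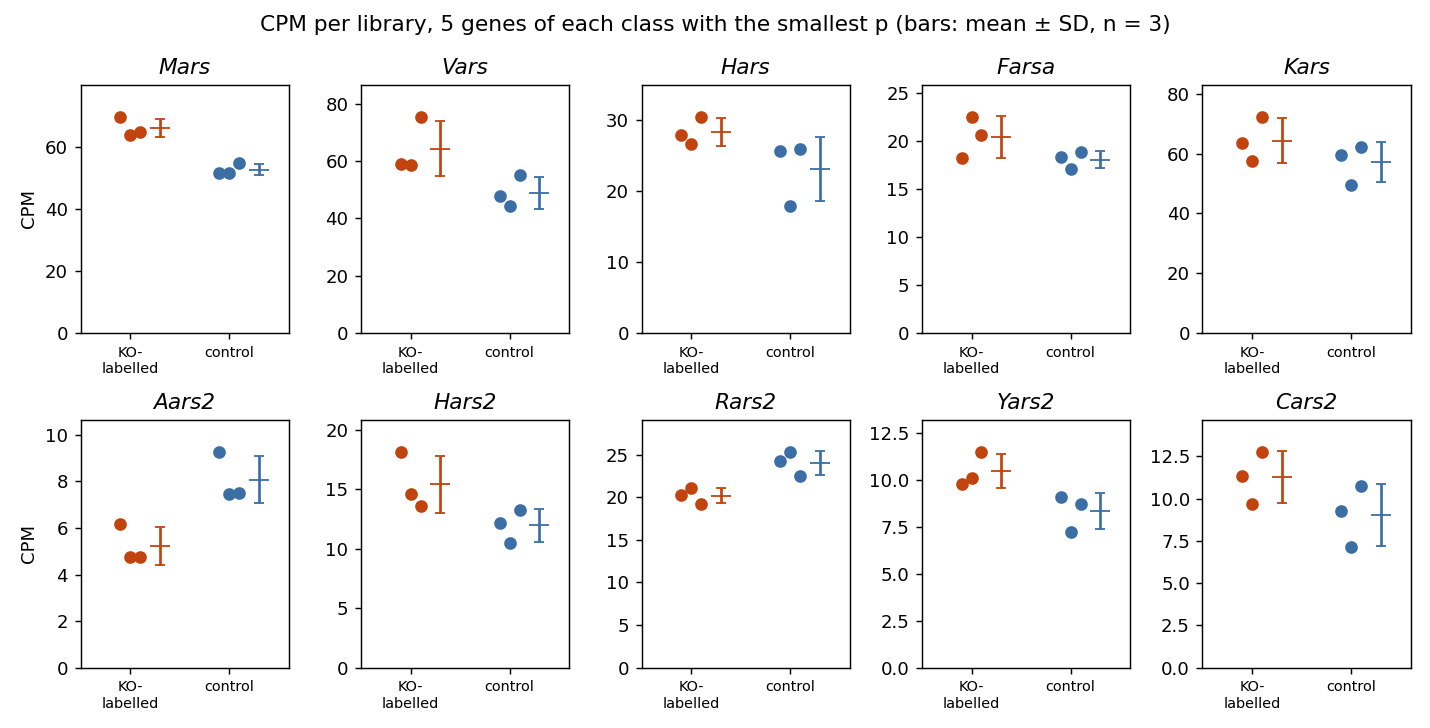
CPM in each library (points) for the 5 genes with the smallest p in each class, with the mean and SD of 3 libraries beside the points; knockout-labelled libraries stand left of controls and each y axis starts at 0. Mars, Vars, Hars, Hars2 and Yars2 were higher and Aars2 and Rars2 lower in all 3 knockout-labelled libraries than in all 3 controls, and Farsa, Kars and Cars2 overlapped.

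The 16 mitochondrial enzymes divided evenly, with 8 log2 fold changes above 0 and 8 below, a median of −0.02 and 0 called. Their summed level was 203, 197 and 191 CPM in the knockout-labelled libraries, against 205, 193 and 207 CPM in the controls, and the groups overlapped. Per-gene differences were somewhat wider here, with a median size of 0.15 on the log2 scale against 0.07 for the cytosolic genes, and the standard errors were wider too (median 0.16 against 0.12). Counts were also lower: a mitochondrial gene had between 47 and 890 counts in a library, and a cytosolic gene between 395 and 5753.

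Aars2, the mitochondrial alanine enzyme, showed the largest difference of the 36. It had 6.16, 4.75 and 4.77 CPM in the knockout-labelled libraries, against 9.26, 7.46 and 7.51 CPM in the controls. Every knockout-labelled library was below every control. The raw counts were 140, 101 and 94 in knockout-labelled libraries, against 200, 179 and 190 in controls. The log2 fold change was −0.62 ± 0.18 (95% interval −1.03 to −0.21), 0.649-fold of control, with an adjusted p of 0.0675. DESeq2 called it (adjusted p = 0.0438), and over the 15 alternatives the log2 fold change stayed between −0.76 and −0.52. The adjusted p ran up to 0.445, in the edgeR fit with the acinar covariate, which called 0 of all tested genes. Aars2 lies on chromosome 17 from 45506841 to 45520843 and shares no exon with another listed gene.

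Hars2 and Rars2 were the other mitochondrial genes with an unadjusted p under 0.05. Hars2, the mitochondrial histidine enzyme, had 18.1, 14.6 and 13.6 CPM in the knockout-labelled libraries, against 12.1, 10.5 and 13.3 CPM in the controls (0.37 ± 0.15, adjusted p = 0.156). The groups did not overlap, with the lowest knockout-labelled library just above the highest control. Rars2, the mitochondrial arginine enzyme, had 20.3, 21.1 and 19.3 CPM in the knockout-labelled libraries, against 24.3, 25.3 and 22.5 CPM in the controls (−0.25 ± 0.10, adjusted p = 0.157). Here the groups did not overlap in the other direction. Hars and Hars2 are head-to-head neighbours on chromosome 18, with Hars on the minus strand from 36766528 to 36783205 and Hars2 on the plus strand from 36783209 to 36792560. Only 3 bases separate their starts, and both had a positive fold change of similar size.

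Of the remaining mitochondrial enzymes, Yars2, for tyrosine, had 9.77, 10.1 and 11.5 CPM in the knockout-labelled libraries, against 9.07, 7.25 and 8.70 CPM in the controls (0.32 ± 0.15, adjusted p = 0.200). The groups did not overlap for Yars2. Cars2, for cysteine, had 11.3, 9.68 and 12.7 CPM in the knockout-labelled libraries, against 9.26, 7.13 and 10.8 CPM in the controls (0.31 ± 0.18, adjusted p = 0.298), and its groups overlapped. Log2 fold changes above 0 were also found for Vars2 (0.16), Sars2 (0.15), Tars2 (0.14), Ears2 (0.12) and Pars2 (0.02), the enzymes for valine, serine, threonine, glutamate and proline. Log2 fold changes below 0 were found for Wars2 (−0.36), Nars2 (−0.23), Iars2 (−0.15), Fars2 (−0.14), Mars2 (−0.13) and Lars2 (−0.07), the enzymes for tryptophan, asparagine, isoleucine, phenylalanine, methionine and leucine. Of these, Wars2 and Fars2 had groups that did not overlap, with adjusted p of 0.392 and 0.405. The exons of Iars2 share 85 bp with Rab3gap2.

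Cytosolic enzymes were far more abundant per exon length than mitochondrial ones. The summed level of the cytosolic class was 535, 528 and 521 CPM per kb of exon in the knockout-labelled libraries, against 549, 476 and 522 CPM per kb in the controls. The mitochondrial class summed to 73.7, 71.4 and 69.8 CPM per kb in the knockout-labelled libraries, against 74.4, 70.2 and 74.9 CPM per kb in the controls. The ratio of the class sums averaged 7.37 ± 0.114 in knockout-labelled islets and 7.04 ± 0.303 in controls (SD, n = 3 each), and the groups overlapped. The medians of log2 fold change differed by 0.07 between the classes, cytosolic minus mitochondrial. This difference was −0.0014 without control 2, 0.15 without control 1 and 0.0067 with each library's mean log2 CPM of acinar markers as a covariate.

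**Figure D3:**
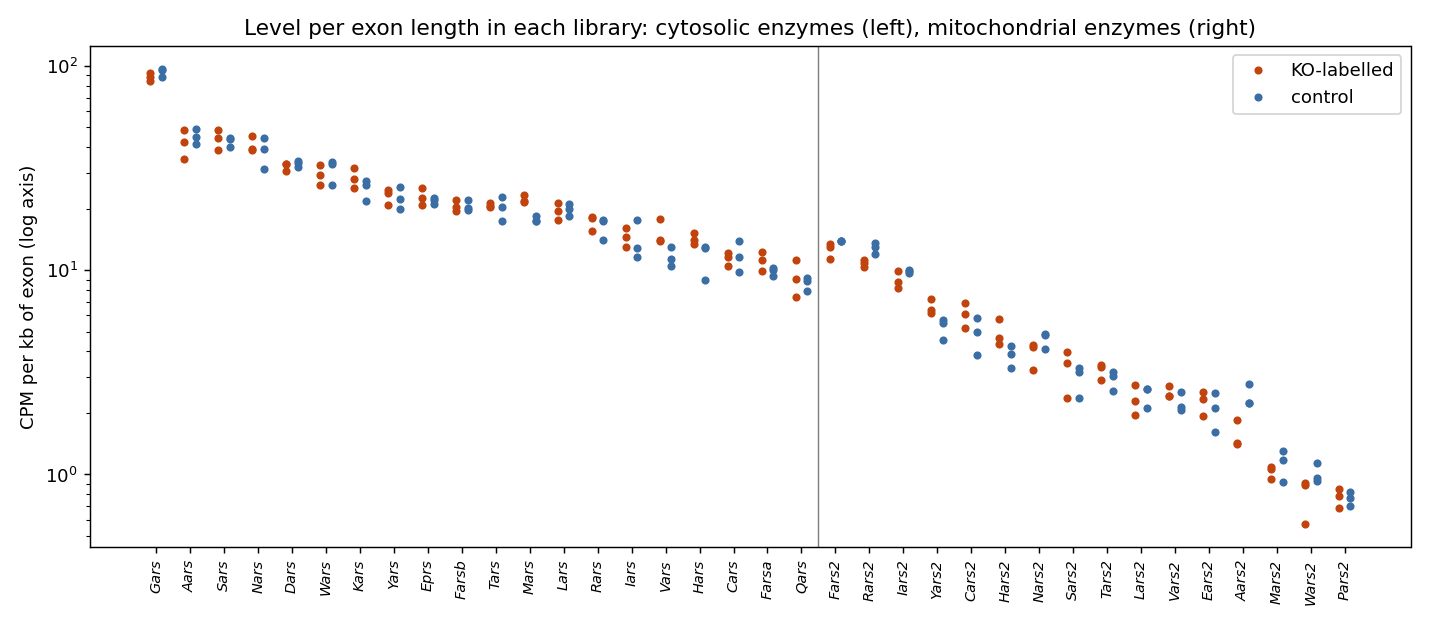
Level of each synthetase gene in each library, as CPM per kb of exon on a log axis, ordered by mean level within the cytosolic class (left of the line) and the mitochondrial class (right). Gars averaged 91.0 CPM per kb over the 6 libraries and Pars2 0.769, and knockout-labelled and control points lie close together for most genes.

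Gars had the highest level of all, at 88.7 ± 4.16 CPM per kb in knockout-labelled islets and 93.4 ± 4.61 CPM per kb in controls (SD, n = 3 each). It was above the next gene in every library. After it came Aars, Sars and Nars, with means over 6 libraries of 43.5, 43.4 and 39.7 CPM per kb, whose ranges overlapped. The cytosolic order then ran through Dars, Wars, Kars, Yars, Eprs, Farsb, Tars, Mars, Lars, Rars, Iars, Vars, Hars, Cars and Farsa to Qars at 8.91 CPM per kb. Of the 19 neighbouring pairs in this order, only Gars and Aars were separated in all libraries. The 8 enzymes of the multi-synthetase complex spanned 3.67-fold in level, from Qars to Dars at 32.7 CPM per kb. The scaffold genes were at 9.19 to 14.1 CPM per kb.

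The mitochondrial order was led by Fars2, Rars2 and Iars2, at 13.2, 11.8 and 9.41 CPM per kb over the 6 libraries. It ran on through Yars2, Cars2, Hars2, Nars2, Sars2, Tars2, Lars2, Vars2, Ears2 and Aars2 to Mars2, Wars2 and Pars2, at 1.08, 0.901 and 0.769 CPM per kb. Of 15 neighbouring pairs, 3 were separated in all libraries: Rars2 above Iars2, Iars2 above Yars2, and Aars2 above Mars2. Fars2, Rars2 and Iars2 thus stood at the levels of the least abundant cytosolic genes.

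For 13 amino acids a cytosolic and a mitochondrial enzyme are both on the list, and the cytosolic level per kb was the higher in every library for all 13. The ratio of cytosolic to mitochondrial level was widest for tryptophan, with Wars at 37.7 times Wars2 in knockout-labelled islets and 30.6 times in controls, and narrow for arginine, with Rars at 1.59 times Rars2 in knockout-labelled islets and 1.27 times in controls. The log2 ratio was higher in knockout-labelled islets for 8 pairs and lower for 5. Groups did not overlap for 3 pairs, all higher in knockout-labelled islets: alanine, methionine and asparagine. Taken singly, 32.1% of all tested genes did not overlap in CPM, and no such share was computed for ratios of other genes. Aars2 and Mars were each separated on their own, as given above, while Nars and Nars2 each overlapped. For alanine the ratio of Aars to Aars2 was 26.8 in knockout-labelled islets and 18.8 in controls. For methionine, Mars stood at 21.5 times Mars2 in knockout-labelled islets and 15.8 times in controls. For asparagine, Nars stood at 10.5 times Nars2 in knockout-labelled islets and 8.27 times in controls.

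**Figure D4:**
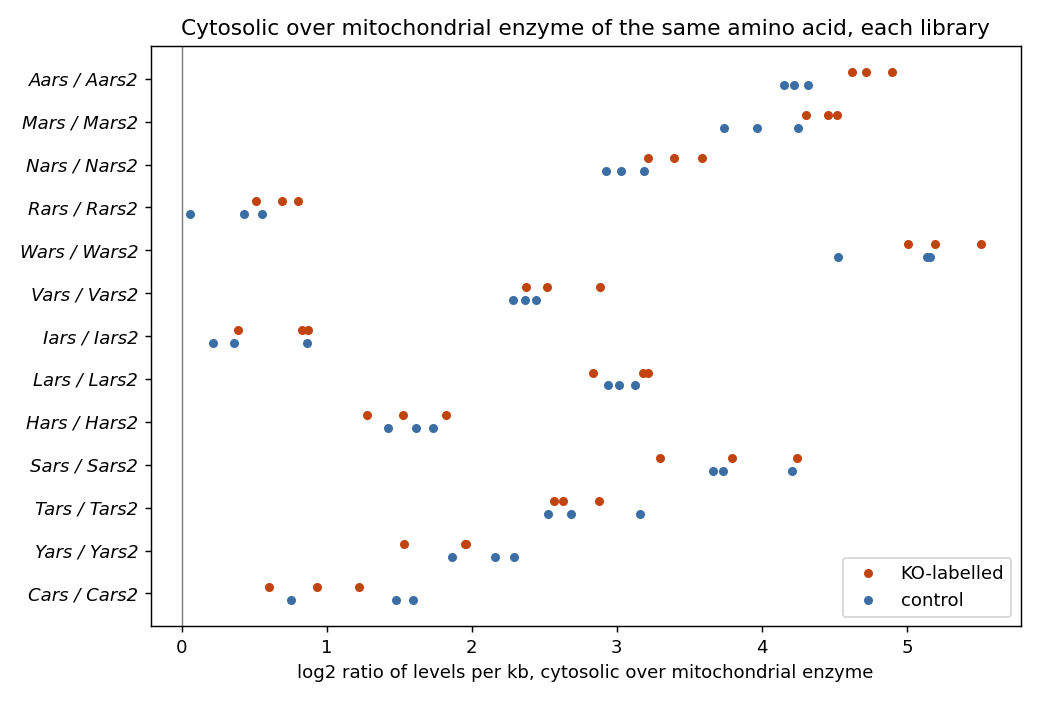
Log2 ratio of the cytosolic over the mitochondrial enzyme of the same amino acid, both as CPM per kb, in each of 3 knockout-labelled and 3 control libraries; pairs run from the most positive difference between labels (top) to the most negative (bottom). Every point is above 0, and the labels do not overlap for Aars / Aars2, Mars / Mars2 and Nars / Nars2.

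The integrated stress response was compared because ATF4 is known to drive many cytosolic synthetase genes along with amino acid synthesis and stress factors. Of 27 stress response and ATF4 target genes other than the synthetases, 3 rose, 0 fell and 24 were not called. Among all tested genes 4.14% rose and 2.63% fell. The median log2 fold change of the 27 was 0.22, with 21 above 0 and 6 below. In edgeR, 11 had an unadjusted p under 0.05 (40.7%), 9 higher and 2 lower, against 26.5% of all tested genes. The groups did not overlap for 12 (44.4%), 10 higher and 2 lower, against 32.1% of all tested genes. Ddit3, the stress transcription factor CHOP, had 142, 76.8 and 86.8 CPM in the knockout-labelled libraries, against 40.4, 38.5 and 39.6 CPM in the controls (1.37 ± 0.20, adjusted p = 0.0115). Trib3, a pseudokinase induced with CHOP, rose by 1.56 ± 0.24 (adjusted p = 0.0129). Pycr1, which makes proline in mitochondria, rose by 0.83 ± 0.20 (adjusted p = 0.0433). Knockout-labelled replicate 1 was the highest of the 6 for Ddit3 and Trib3, and replicate 3 for Pycr1. Atf4 itself averaged 191 ± 13.3 CPM in knockout-labelled islets and 164 ± 14.5 CPM in controls (0.22 ± 0.11, adjusted p = 0.234), and asparagine synthetase Asns was at 0.11 ± 0.09 (adjusted p = 0.497). The 12 synthetases known as ATF4 targets had a median log2 fold change of 0.04 and 0 calls, and the 8 other cytosolic enzymes a median of 0.13 and 0 calls. The letters TGATGNAA were present in the promoter windows of Asns and Pycr1, and absent from those of Ddit3, Trib3 and Atf4, which says nothing of sites elsewhere.

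Genes that act next to the synthetases were also mostly not called. Of 42 tRNA maturation, export and modification genes, 0 were called, and the median log2 fold change was 0.02. An unadjusted p under 0.05 was found for 4 of them (9.52%), against 26.5% of all tested genes. The export receptor for tRNA, Xpot, averaged 57.2 ± 1.37 CPM in knockout-labelled islets and 46.0 ± 4.16 CPM in controls (0.31 ± 0.10, adjusted p = 0.0778), and Qtrt1, a subunit of the queuosine enzyme, was at 0.36 ± 0.14 (adjusted p = 0.134). Of 18 mitochondrial translation factors, 0 were called and 14 had a log2 fold change below 0, with a median of −0.07. Among all tested genes 49.1% were below 0. Trmt10c, a subunit of mitochondrial RNase P, was at −0.38 ± 0.14 (adjusted p = 0.118) and the tRNA modification enzyme Gtpbp3 at −0.37 ± 0.18 (adjusted p = 0.237). Of 6 cytosolic elongation factor genes, which carry charged tRNA to the ribosome or move it along, 1 rose and 5 were not called. All 6 had a log2 fold change above 0 (median 0.27), 3 had an unadjusted p under 0.05, and for 4 every knockout-labelled library was above every control. At that p 14.9% of all tested genes were higher, and 16.9% had every knockout-labelled library above every control. By adjusted p, 4.14% of all tested genes were called higher. The gene that rose was Eef1a2, the tissue-restricted form of elongation factor 1α, at 6.37 ± 0.314 CPM in knockout-labelled islets and 3.71 ± 0.627 CPM in controls (0.78 ± 0.20, adjusted p = 0.0475). Of 5 synthetase-like and proofreading genes 0 were called: Lrrc47 was at −0.29 ± 0.12 (adjusted p = 0.155) and Aarsd1, an alanyl-tRNA editing protein, at 0.09 ± 0.12 (adjusted p = 0.699).

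Wars is known to be induced by interferon γ, so interferon-responsive genes were set beside it. Of 11 tested, 3 rose (Gbp2, 1.21 ± 0.30; Gbp3, 1.22 ± 0.31; and Tap1, 0.66 ± 0.17) and 1 fell (Irf1, −1.07 ± 0.25). Among all tested genes 4.14% rose and 2.63% fell. Gbp2 and Gbp3 are interferon-induced GTPases, Tap1 a peptide transporter of antigen presentation and Irf1 a transcription factor. Wars itself had 75.1, 84.3 and 94.1 CPM in the knockout-labelled libraries, against 95.4, 75.5 and 97.7 CPM in the controls, and the groups overlapped.

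Transcripts of other cell types differed between the labels in the same libraries. All 26 acinar markers had a higher mean in knockout-labelled islets, and their summed level was 33853 to 38472 CPM there, against 1272 to 14220 CPM in controls. Prss1, Amy2a5 and Ptf1a were at 0 in at least 1 library. All 10 myeloid markers were also higher in mean, summing to 290.1 to 380 CPM in knockout-labelled islets and 175 to 177 CPM in controls, with none at 0. All 10 stromal markers were higher too, at 364 to 460 CPM in knockout-labelled islets and 95.5 to 331 CPM in controls, with none at 0. The 7 endothelial markers, of which 6 were higher in mean, summed to 408 to 481 CPM in knockout-labelled islets and 284 to 385 CPM in controls. The 6 duct markers summed to 358 to 551 CPM in knockout-labelled islets and 241 to 302 CPM in controls, with Cftr at 0 in at least 1 library. The 6 delta, PP and epsilon cell markers summed to 17957 to 20630 CPM in knockout-labelled islets and 7383 to 14835 CPM in controls, with none at 0. Of the markers tested, edgeR called 2 of 23 acinar, 5 of 10 myeloid, 4 of 10 stromal and 3 of 7 endothelial markers higher. It also called 1 of 5 duct, 2 of 6 delta, PP and epsilon, 1 of 7 lymphocyte and 0 of 6 alpha cell markers higher. In each of these lists 0 were called lower. Among all tested genes 4.14% were called higher and 2.63% lower. The β cell markers moved the other way, as given above. Acinar genes entered only the alternative fits given below, as a covariate and by removal together with hormone genes. The acinar sums did not overlap between the labels, so the covariate cannot tell acinar level and label apart. The part of the other cell types in the synthetase values was not tested. Fewer cells of a type and less RNA per cell cannot be told apart in bulk RNA.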

How the data were processed

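The authors deposited whole-number read counts per gene for 6 libraries, not normalized, with the exon coordinates and summed exon length (bp) of each gene, per the file headers. Per the labels' protocols, poly-dT primed cDNA was made from low-input RNA with SMART-Seq v4 chemistry, sheared and built into Ion Plus Fragment libraries, which keep no record of strand, so overlapping and antisense genes cannot be separated. STAR 2.4.2a, Subread 1.5.0 with featureCounts, edgeR and the build mm10 are listed in the submitters' processing notes, while the annotation and multi-mapping settings are not given.

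Counts were tested here in edgeR 4.0.16 (R 4.3.3) with TMM factors, the default filterByExpr filter (minimum count 10), quasi-likelihood fits, group as the only term and Benjamini-Hochberg adjustment over all 13736 genes tested, at 0.05. SE values were derived from the fold change and F value. CPM uses TMM-scaled library sizes, and levels per kb divide CPM by the deposited exon length. The procedure was tested on simulated data. Replicates of a label differed by more than counting noise (chi-square per degree of freedom 11.1 or more). Alternatives used DESeq2 1.42.0, limma-voom (limma 3.58.1), other factors and filters, a replicate block, an acinar covariate, a table without acinar and hormone genes, and each library omitted in turn. Overlaps were found with GenomicRanges 1.54.1.

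The members and gene lists were chosen with earlier results of these data known. All 36 members are named. Values per library are given for the 5 members with the smallest p in each class, and for Wars, chosen after its values were seen. From each other list up to 4 called genes, or else the 2 with the smallest p, are named, with Atf4, Asns, Ddit3 and Dhps whatever the p.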

Additional observations from a re-analysis of the deposited data

How the results depend on the processing

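Over the alternatives, 0 of 36 members were called with RLE factors, no filter, limma-voom, the acinar covariate, removal of acinar and hormone genes, and without each library in turn. The number called higher was 1 (Mars) with upper-quartile factors, with at least 1 CPM in at least 3 libraries and in DESeq2, which also called 1 lower (Aars2). The acinar covariate moved the mitochondrial median log2 fold change to 0.034 and the difference of the class medians to 0.0067. Leaving out each library gave a cytosolic median of −0.040 to 0.118, a mitochondrial median of −0.0686 to −0.0022 and a difference of −0.0014 to 0.147, and the cause was not tested. Over all genes, 929 were called in the analysis reported, 1702 in DESeq2, 0 with the acinar covariate, 64 without knockout-labelled replicate 1, 99 without control 2, 216 without control 3 and 344 without knockout-labelled replicate 3. The replicate numbers did not pair the libraries: same-numbered deviations from the group means correlated at −0.0607, 0.0269 and 0.0323, and no knockout-labelled library correlated best with the control of its own number. With the replicate block 0 members and 826 genes in all were called, and the class medians differed by 0.085. Aars2, Mars, Vars and the other genes at an unadjusted p under 0.05 kept their direction in all 15 alternatives. They were picked by p in the same libraries that the alternatives reuse, so this is no independent check. Members far from the threshold, such as Dars (adjusted p = 0.801, edgeR) and Gars (0.680), kept theirs too, so the trait does not set these genes apart. Depth limits the mitochondrial genes most: Pars2 had as few as 47 counts in a library.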

Other observations

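Tarsl2, a threonyl-tRNA synthetase-like gene outside the listed members, was named after its values were seen. It had 11.3, 12.7 and 9.60 CPM in the knockout-labelled libraries, against 13.4, 13.4 and 13.9 CPM in the controls (−0.27 ± 0.14, adjusted p = 0.230, edgeR). The groups did not overlap for Tarsl2, and it did not pass the threshold.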
